A study of Mus musculus with 6 samples.

Results

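The 10 genes described here encode proteins of the smooth muscle contractile apparatus: the actins Acta2 and Actg2, the myosin heavy chain Myh11, its kinase Mylk, the actin-binding proteins Tagln, Cnn1, Lmod1, Smtn and Synpo2, and the transcriptional coactivator Myocd. They were chosen by gene symbol, each symbol matched 1 row of the 27131 genes in the table, and all 10 were among the 16960 genes that passed the filter on low counts. RNA came from the levator ani/bulbocavernosus (LA/BC), a striated muscle complex of the male pelvic floor, of 14-week-old mice on standard chow. The groups were 3 wild-type mice (WT) and 3 mice of the genotype labelled 113Q, from a knock-in line that models SBMA (spinal and bulbar muscular atrophy), an inherited disease caused by a lengthened glutamine tract in the androgen receptor. Strain, litter and batch are not stated in the labels, and no treatment is listed for either group. The comparison addresses how gene expression in the muscle differs in these knock-in mice.

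Library totals ran from 43581087 to 73873481 estimated counts. Levels are given as CPM, which are read counts relative to the library total corrected by a TMM factor, and levels of different genes are compared as RPKM, which is CPM divided by the transcript length in kilobases. The labelled tissue was checked with 12 markers of fast skeletal fibres, which summed to between 228867 and 247400 CPM in the WT mice and between 53164 and 65320 CPM in 113Q. Skeletal fibre transcripts were thus abundant in every library. All 12 passed as lower in 113Q, beside 18.1% of all genes tested. Without the TMM factor 11 of the 12 passed as lower, beside 4.19%. Epcam, an epithelial marker, exceeded 1 CPM in the libraries of WT mouse 2, 113Q mouse 2 and 113Q mouse 3, and the fold changes of the members were also fitted within the libraries on each side of that level.

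Smooth muscle lines the arteries of skeletal muscle and the hollow organs next to the pelvic floor. Its contraction starts when calcium binds calmodulin, which activates myosin light chain kinase, and phosphorylated myosin then pulls on actin filaments; myosin phosphatase ends it. Many of its genes are switched on by serum response factor with coactivators of the myocardin family, through DNA sequences called CArG boxes. Several of these proteins are also made by pericytes, myofibroblasts and developing or regenerating striated muscle.

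In 113Q muscle, 6 of the 10 transcripts had means between 3.22 and 8.17 times those of WT: Cnn1, Actg2, Acta2, Myh11, Mylk and Tagln. A ratio of at least 3 was found for 3.6% of all genes tested. The cut of 3 was not set in advance and lies just below the smallest of the 6 ratios, so that share is no test. In each of these 6 the lowest 113Q mouse lay above the highest WT mouse, as it did for 25.1% of all genes tested. The spread between mice of a group was wide, and Acta2 was the 1 member that passed the test as higher (edgeR quasi-likelihood test with Benjamini-Hochberg adjustment, threshold 0.05), beside 16.5% of all genes. Synpo2 was the 1 member that fell, to 0.446 of its WT level, beside 18.1% of all genes called lower. The remaining 3, Smtn, Lmod1 and Myocd, overlapped between the groups. These 2 calls among 10 members stand beside 34.6% of all genes tested, so the share of members called was no higher than that of all genes. The median log2 fold change of the 10 members was 1.83, against 0.01 over all genes tested. In whole muscle, a different number of smooth muscle cells, a different amount of RNA per cell and RNA from other cells that express these genes cannot be told apart.

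**Figure D1:**
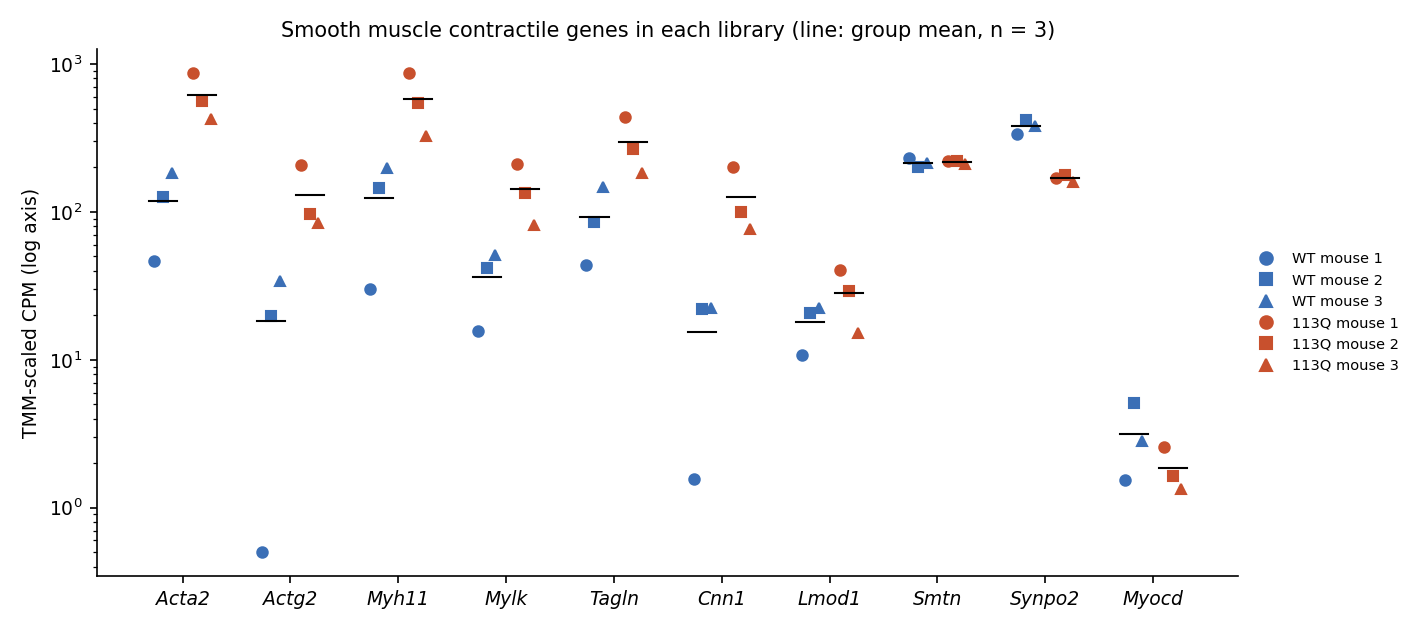
Level of each of the 10 genes in each of the 6 libraries, in CPM on a log axis, with 1 point per mouse, the WT and 113Q groups side by side and a line at each group mean. The 113Q points lie above all WT points for Acta2, Actg2, Myh11, Cnn1, Tagln and Mylk, and below them for Synpo2, while the groups overlap for Smtn, Lmod1 and Myocd.

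Acta2 (chr19:34241090-34255590, minus strand, 9 exons; mouse build GRCm38) encodes smooth muscle alpha-actin, the thin filament actin of vascular smooth muscle. It was at 46.4, 126 and 184 CPM in WT mice 1, 2 and 3 and at 867, 566 and 425 CPM in 113Q mice 1, 2 and 3. All 113Q mice were above all WT mice, and the lowest 113Q mouse had 2.31 times the level of the highest WT mouse. The means were 119.0 ± 69.2 and 619 ± 225 CPM (SD, n = 3 each), a ratio of 5.20 and a log2 fold change of 2.38 ± 0.60 (SE; edgeR adjusted p = 0.037). The call did not hold without WT mouse 2 (adjusted p = 0.113) or without 113Q mouse 1, 2 or 3 (0.0845, 0.095 and 0.0619), while the log2 fold change stayed between 1.99 and 2.84 when any 1 mouse was left out.

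The stretches of the Acta2 promoter nearest to a CArG box are shown because the coactivator of that box is itself one of the 10 genes. Among the 250 bases before the RefSeq start (GRCm38.p6, minus strand), no exact CArG box was found on either strand. Both of the following have the outer CC and GG with 1 base other than A or T in the 6-base core; capitals mark the 10-base box, which begins 84 and 34 bases before the start.
Acta2 at chr19:34255438-34255467: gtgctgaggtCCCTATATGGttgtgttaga
Acta2 at chr19:34255388-34255417: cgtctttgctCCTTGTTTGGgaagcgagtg
Promoter windows were found for 6 of the 10 members (Acta2, Cnn1, Smtn, Lmod1, Mylk and Synpo2). An exact box was in 0 of these 6 and a box with at most 1 other core base in 1 of 6, beside 1.47% and 8.59% of all 32851 promoter windows of the same length. No window was found for Actg2, Myh11, Tagln and Myocd, and sequence beyond the 250 bases was not searched.

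Actg2 (chr6:83512905-83536265, minus strand, 9 exons) encodes smooth muscle gamma-actin, the actin of visceral smooth muscle such as gut and bladder. Its level was 0.503, 19.8 and 34.3 CPM in WT mice 1, 2 and 3 and 208, 97.0 and 84.2 CPM in 113Q mice 1, 2 and 3. WT mouse 1 stood far below the other WT mice, with 17 counts against 18625 in 113Q mouse 1, and the highest WT mouse had 68.1 times the level of the lowest. The groups did not overlap, with means of 18.2 ± 17 and 129.7 ± 68.1 CPM, a ratio of 7.13. With that spread the log2 fold change of 2.82 ± 1.28 did not pass (edgeR adjusted p = 0.17). When any 1 mouse was left out it lay between 2.26 and 3.63 and did not pass. Per length, Actg2 relative to Acta2 was 0.017, 0.239 and 0.284 in the WT mice and 0.366, 0.261 and 0.302 in 113Q. The visceral actin was scarce relative to the vascular one in WT mouse 1 alone. The 2 transcripts share no 50-base window, and Acta2 shares 0.352% of its windows with the non-muscle actin Actg1.

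Myh11 (chr16:14194535-14291372, minus strand, 41 exons) encodes the smooth muscle myosin heavy chain, the motor of the thick filament. It was at 29.9, 146 and 197 CPM in the WT mice and at 864, 547 and 326 CPM in 113Q. The order of the mice was that of Acta2, with WT mouse 1 lowest and 113Q mouse 1 highest, and the groups did not overlap. Means were 124 ± 85.5 and 579 ± 271 CPM, a ratio of 4.66, and the log2 fold change of 2.22 ± 0.83 did not pass (edgeR adjusted p = 0.111).

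Mylk (chr16:34745210-35002420, plus strand, 32 exons) encodes the myosin light chain kinase of smooth muscle and non-muscle cells. Its 6 levels were 15.5, 41.5 and 51.4 CPM in the WT mice and 211, 134 and 81.9 CPM in 113Q. Every 113Q mouse was above every WT mouse, by 1.59 times at the nearest pair. From 36.1 ± 18.5 to 142 ± 65.1 CPM the ratio was 3.94, and the log2 fold change of 1.97 ± 0.60 did not pass (edgeR adjusted p = 0.062). Parts of its exons overlap E130310I04Rik over 548 bases and Gm21691 over 224 bases, and fragments from those parts may be divided between the genes.

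Tagln (chr9:45929619-45936058, minus strand, 5 exons) encodes transgelin, or SM22-alpha, an actin-bundling protein that appears early in smooth muscle differentiation. It measured 43.8, 85.4 and 147 CPM in the WT mice and 439, 267 and 184 CPM in 113Q. The groups were close at their edges, with the lowest 113Q mouse at 1.25 times the highest WT mouse. The ratio of means, 92.1 ± 51.9 and 297 ± 129.9 CPM, was 3.22, and the log2 fold change of 1.69 ± 0.57 did not pass (edgeR adjusted p = 0.0826). Without WT mouse 3 it was 2.20 and passed (edgeR adjusted p = 0.0477). Tagln shares 1241 exon bases with the antisense gene Gm48529, and the strand setting of the counting is not given in the sources used here, so reads of the pair cannot be told apart.

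Cnn1 (chr9:22099216-22109630, plus strand, 7 exons) encodes calponin 1, an actin-binding protein of differentiated smooth muscle that inhibits the myosin ATPase. It was at 1.57, 22.2 and 22.6 CPM in the WT mice and at 201.5, 100.4 and 76.5 CPM in 113Q. WT mouse 1 was again well below the others of its group, at 53.0 counts, and the lowest 113Q mouse was 3.39 times the highest WT mouse, the widest gap of the 10 genes. The ratio of the means, 15.4 ± 12 and 126 ± 66.3 CPM, was 8.17, and the log2 fold change of 3.01 ± 1.04 did not pass (edgeR adjusted p = 0.0952). Without WT mouse 1 it was 2.49 and passed (edgeR adjusted p = 0.0354).

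Lmod1 (chr1:135324807-135368065, plus strand, 3 exons) encodes leiomodin 1, which nucleates actin filaments in smooth muscle. Its level was 10.8, 20.7 and 22.2 CPM in the WT mice and 40.4, 29.4 and 15.2 CPM in 113Q. The groups overlapped, since 113Q mouse 3 was below WT mice 2 and 3. The log2 fold change was 0.66 ± 0.45 and did not pass (edgeR adjusted p = 0.316).

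Smtn (chr11:3517523-3540612, minus strand, 22 exons) encodes smoothelin, an actin-binding protein with a shorter form in visceral and a longer form in vascular smooth muscle. It was at 232, 201 and 213 CPM in the WT mice and at 220.0, 220.3 and 210.3 CPM in 113Q. All 6 libraries lay within a narrow and shared range. The log2 fold change was 0.01 ± 0.08 (edgeR adjusted p = 0.934). Its exons overlap the antisense Gm11946 over 714 bases.

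Synpo2 (chr3:123076519-123236149, minus strand, 4 exons) encodes synaptopodin 2, or myopodin, which bundles actin in smooth muscle and also sits at the Z-disc of skeletal and heart muscle. It was at 338, 416 and 380 CPM in the WT mice and at 169, 179 and 159 CPM in 113Q. Every 113Q mouse was below every WT mouse, as for 24.8% of all genes, and the mice of each group lay close together. Synpo2 fell from 378 ± 38.8 to 169 ± 9.79 CPM, a log2 fold change of -1.16 ± 0.10 (edgeR adjusted p = 9.99e-05). It passed under all 19 other settings tried, including the omission of any 1 mouse, and with library totals alone the log2 fold change was -0.44.

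Myocd (chr11:65176561-65269989, minus strand, 14 exons) encodes myocardin, the coactivator of serum response factor in smooth and cardiac muscle. Its level was low, at 1.54, 5.11 and 2.83 CPM in the WT mice and 2.59, 1.64 and 1.34 CPM in 113Q. The groups overlapped, with WT mouse 1 between the 113Q mice. Means were 3.16 ± 1.81 and 1.86 ± 0.652 CPM, and the log2 fold change of -0.77 ± 0.45 did not pass (edgeR adjusted p = 0.226).

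**Figure D2:**
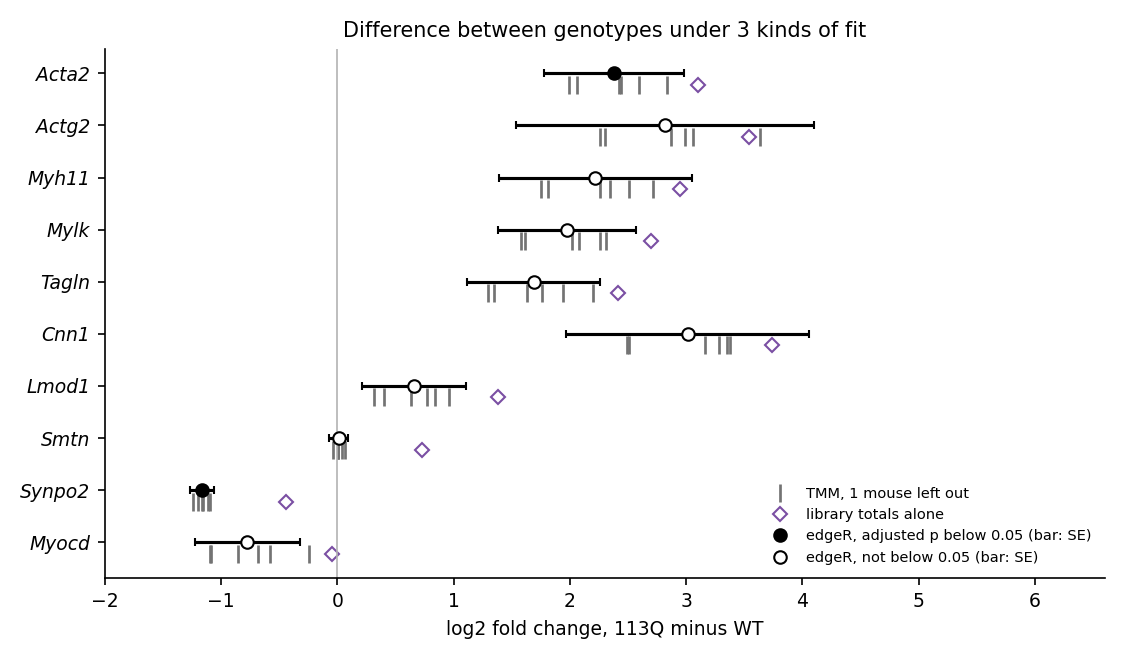
Log2 fold change of each of the 10 genes, 113Q minus WT, as circles with bars of 1 standard error (n = 3 mice per group; filled where the edgeR adjusted p is below 0.05), ticks for fits without 1 mouse and diamonds for scaling to library totals alone. Cnn1, Actg2, Acta2, Myh11, Mylk and Tagln have values between 1.69 and 3.01 with wide bars, Smtn lies at 0.01, and Synpo2 lies at -1.16 with a narrow bar.

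TMM scaling rests on the assumption that most genes do not differ, and with library totals alone the log2 fold changes of all genes were shifted upwards by 0.72. On that scale 8 members passed, 7 as higher and 1 as lower, beside 69.1%, 64.9% and 4.19% of all genes tested. Members are therefore described relative to the other genes of the same library. The DESeq2 test called 5 members higher (Acta2, Cnn1, Myh11, Mylk and Tagln) and 1 lower, 6 in all, beside 18.1%, 20.2% and 38.3% of all genes. limma voom with quality weights called 1 higher and 1 lower, beside 18.2%, 19.4% and, in either direction, 37.5% of all genes.

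The libraries were also fitted by whether Epcam reached 1 CPM. Those without it are 2 WT mice and 113Q mouse 1, and those with it are WT mouse 2 and 113Q mice 2 and 3. In each fit 1 group is thus a single mouse with no spread of its own, and no p is printed for these fits. Counts called in them are given only beside the other settings in the closing section. The log2 fold change without and with Epcam was 2.90 and 1.97 for Acta2, 3.55 and 2.19 for Actg2, 2.92 and 1.58 for Myh11, 2.65 and 1.38 for Mylk, 2.20 and 1.40 for Tagln, and 4.03 and 1.99 for Cnn1. All 6 were above 0 on both sides, and each was larger in the libraries without Epcam, which hold the lowest WT mouse and the highest 113Q mouse. Lmod1 was at 1.28 and 0.10, Smtn at -0.01 and 0.09, and Myocd at 0.23 and -1.78, so the Myocd difference had opposite signs. Synpo2 was at -1.09 and -1.31.

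The mice of a group differed from each other in the same order for most members. In 113Q, mouse 1 was highest and mouse 3 lowest for 8 of the 10 genes, an order seen in 19.9% of all genes tested, and in WT, mouse 1 was lowest for 9 of 10, against 35.4%. Both orders were found together for 8 members, all but Smtn and Synpo2, beside 8.64% of all genes, and 6 of these also had 113Q above WT without overlap, beside 3.19%. The highest WT mouse exceeded the lowest at least 3 times for 7 members, beside 9.73% of all genes. The summed RPKM of Acta2, Actg2, Myh11, Cnn1, Tagln and Mylk was 57.9, 167 and 255 in the WT mice and 1101, 661 and 480 in the 113Q mice, so their sum varied over 2-fold among the 113Q mice and more among the WT mice. These 6 were picked for lying above WT, so the gap between the groups in this sum is given by that choice. Since the genes come from the same libraries, these counts of members describe the libraries and are not independent of each other. The orders are those of Acta2, and neither they nor the cut of 3 times was set in advance. The shares of members that follow them are thus no test. Epcam was at 0 in both WT mouse 1, the lowest of its group, and 113Q mouse 1, the highest.

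Per length, Smtn was the most abundant of the 10 in WT, at a mean of 63.6 RPKM, followed by Acta2 at 58.5, Tagln at 57.7 and Synpo2 at 41.1 RPKM. The WT range of Acta2 spans the levels of Smtn, Tagln and Synpo2, so the order of these neighbours is not larger than the spread. In 113Q, Acta2 came first at a mean of 304 RPKM and Tagln next at 186 RPKM, with Actg2 at 97.3 and Myh11 at 88.4 RPKM. Next were Smtn at 64.1, Cnn1 at 53.0, Synpo2 at 18.3 and Mylk at 18.2 RPKM. The ranges of neighbours in this order overlapped from Acta2 down to Cnn1, and the range of Synpo2 lay within that of Mylk. Lmod1 and Myocd were last in both groups, at 4.53 and 0.618 RPKM in WT and 7.18 and 0.363 RPKM in 113Q. Tagln relative to Acta2 ran from 0.862 to 1.20 in WT and from 0.553 to 0.646 in 113Q, ranges that did not overlap. Myh11 relative to Acta2 overlapped, at 0.200 to 0.358 in WT and 0.238 to 0.310 in 113Q.

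The other structural genes of the smooth muscle cell were taken from a list of 36 contractile and cytoskeletal genes. Of these 16 rose, 10 fell and 10 missed the threshold, at a median log2 fold change of 0.44. Over all genes tested 16.5% rose and 18.1% fell. Scaled to library totals only, 26 passed as higher and 3 as lower, beside 64.9% and 4.19% of all genes. Most of these genes are also expressed by striated or non-muscle cells. Tpm1 and Tpm2, tropomyosins that are abundant in skeletal fibres, fell by 2.25 and 1.89 on the log2 scale (edgeR adjusted p = 1.29e-05 and 5.23e-05). Pdlim3, a Z-disc protein, fell by 1.19 (edgeR adjusted p = 0.000126), and Mustn1, a small nuclear protein of the musculoskeletal system, rose by 0.76 (edgeR adjusted p = 0.000246).

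Among genes of that list named after their values were seen, Myl9 encodes the regulatory light chain of smooth muscle myosin, the substrate of Mylk. It was at 34.0, 73.4 and 100.2 CPM in the WT mice and at 375, 256 and 246 CPM in 113Q. The order of the mice was that of Acta2, and the groups did not overlap. Myl9 rose 4.22 times, a log2 fold change of 2.08 ± 0.44 (edgeR adjusted p = 0.0185), a call lost without WT mouse 2 (adjusted p = 0.0696) or 113Q mouse 2 (0.0524), where the log2 fold change was 2.12 and 2.17. It was 2.48 in the libraries without Epcam and 1.77 in those with it. Csrp1, a LIM protein of smooth muscle, rose 3.76 times (edgeR adjusted p = 0.0163), and Actn1, the alpha-actinin of dense bodies, 2.93 times (edgeR adjusted p = 0.0113). The Csrp1 log2 fold change of 1.91 was 1.95 without WT mouse 2 (adjusted p = 0.0624) and 1.97 without 113Q mouse 2 (0.0507), where the call was lost, and it was 2.42 in the libraries without Epcam and 1.51 in those with it. For Actn1 these values were 2.07 and 1.00, against 1.54 in all libraries. Cald1, caldesmon, an actin-binding inhibitor of the myosin ATPase, rose 2.23 times (edgeR adjusted p = 0.047), close to the threshold, and its call was lost when any mouse other than 113Q mouse 3 was left out.

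Of 39 regulators of smooth muscle contraction tested (40 in the table), 13 rose, 4 fell and 22 missed the threshold, with a median of 0.38, beside the same 16.5% higher and 18.1% lower over all genes. When scaled to library totals only, 30 passed as higher, beside 64.9%. Adra1b, the alpha-1B adrenergic receptor through which noradrenaline contracts vessels, was at 0.533, 0.340 and 0.808 CPM in the WT mice and 5.15, 3.60 and 5.41 CPM in 113Q. The groups were far apart, and the 113Q order differed from that of Acta2. Adra1b rose 8.42 times, a log2 fold change of 3.07 (edgeR adjusted p = 0.00036), at a low level. Rhoa and Rock2, the GTPase and kinase that hold back myosin phosphatase, rose 1.49 and 1.56 times (edgeR adjusted p = 0.000834 and 0.00132). Calm2, one of the calmodulin genes, had a log2 fold change of -0.72 (edgeR adjusted p = 0.000361), which was 0.01 with library totals alone.

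Also named after their values were seen were Kcnmb1 and Prkg1. Kcnmb1, the smooth muscle subunit of the calcium-activated potassium channel, was at 0.296, 1.06 and 1.71 CPM in the WT mice and 6.97, 4.90 and 2.52 CPM in 113Q, again in the order of Acta2. Kcnmb1 rose 4.69 times (edgeR adjusted p = 0.0402), and the call was lost without WT mouse 2 (adjusted p = 0.113), 113Q mouse 1 (0.0946) or 113Q mouse 2 (0.099). Its log2 fold change of 2.20 was 2.74 in the libraries without Epcam and 1.80 in those with it. Prkg1, the cGMP-dependent kinase that relaxes smooth muscle, fell from 64.2 ± 7.76 to 31.9 ± 5.61 CPM (edgeR adjusted p = 0.00147). With library totals alone its log2 fold change was -0.29 and did not pass (edgeR adjusted p = 0.135).

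**Figure D3:**
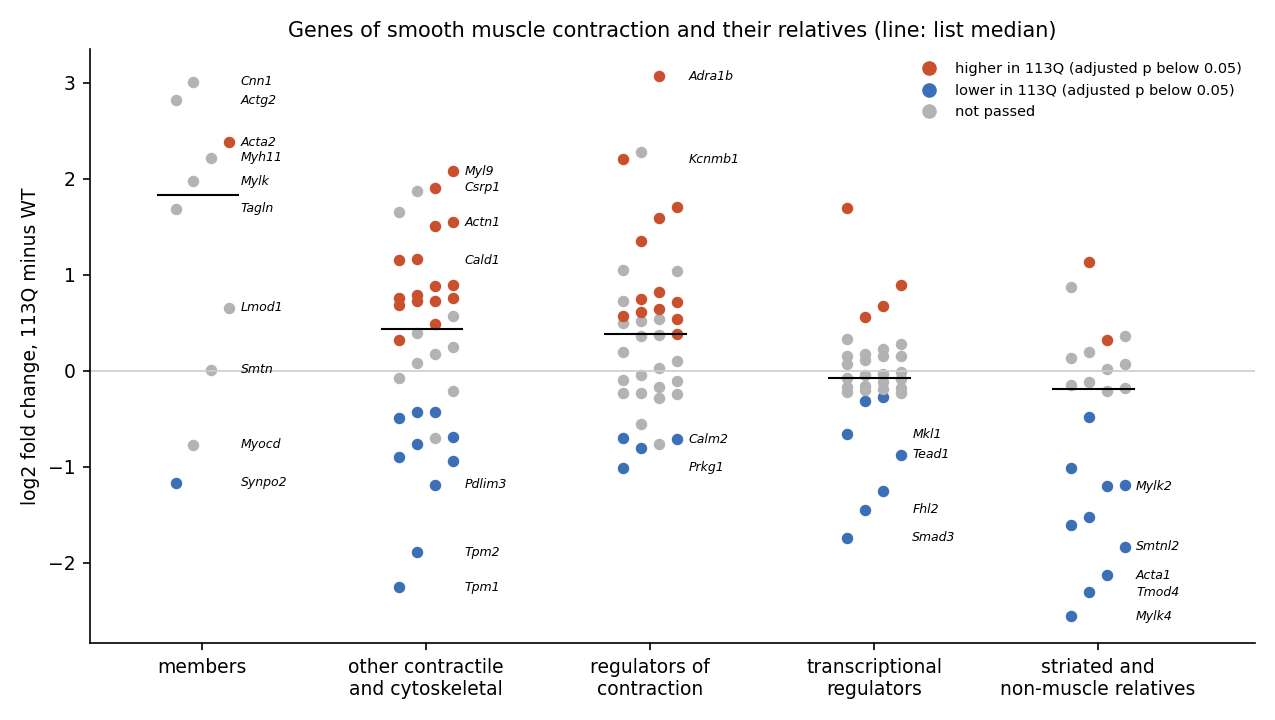
Log2 fold change, 113Q minus WT, of the 10 members and of 4 lists of related genes, 1 point per gene, coloured by whether the gene passed as higher, passed as lower or did not pass, with a line at each list's median. The medians are 1.83 for the members, 0.44 for other contractile and cytoskeletal genes, 0.38 for regulators of contraction, -0.08 for transcriptional regulators and -0.19 for striated and non-muscle relatives.

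Of 33 transcriptional regulators of smooth muscle genes tested (34 in the table), 4 rose, 7 fell and 22 missed the threshold, with a median of -0.08, shares near the 16.5% higher and 18.1% lower of all genes. Scaled to library totals only, 24 passed as higher and 3 as lower, beside 64.9% and 4.19%. Srf, serum response factor itself, named after its values were seen, was at 25.7, 29.3 and 20.4 CPM in the WT mice and 19.1, 23.9 and 23.8 CPM in 113Q. These ranges overlapped, and its log2 fold change was -0.18 (edgeR adjusted p = 0.405). Smad3, a transducer of TGF-beta signals, fell from 430.5 ± 30.4 to 129 ± 13.3 CPM (edgeR adjusted p = 2.24e-05), and Fhl2, a LIM-domain cofactor, fell 2.73 times (edgeR adjusted p = 4.29e-05). Tead1, the DNA-binding partner of YAP, and Mkl1, a coactivator of the myocardin family, had log2 fold changes of -0.87 and -0.66 (edgeR adjusted p = 0.00065 and 0.00085). With library totals alone the Tead1 call was lost (edgeR adjusted p = 0.215) and Mkl1 was at 0.06.

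Exact CArG boxes were counted in the same promoter windows of these lists. A box was found for 5 of 31 other contractile and cytoskeletal genes (16.1%), 0 of 31 regulators of contraction, 2 of 24 transcriptional regulators (8.33%) and 4 of 18 relatives (22.2%), beside 167 of 11175 tested genes (1.49%). Of the 167 tested genes with a box, 29 were higher, 34 lower and 104 did not pass, with a median of -0.02, and over genes without one the median was 0.02. The boxes below come from genes that were higher (Myl9), lower (Fhl2, Acta1) or did not pass (Srf), to show that a box was present in each kind; capitals mark the box, and all are from GRCm38.p6 of RefSeq.
Myl9, plus strand, chr2:156775293-156775322: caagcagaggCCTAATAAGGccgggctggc
Fhl2, minus strand, chr1:43163973-43164002: gcgcgtgtgtCCTTATATGGtcaaatgact
Acta1, minus strand, chr8:123894829-123894858: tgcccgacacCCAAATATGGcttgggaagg
Srf, minus strand, chr17:46556225-46556254: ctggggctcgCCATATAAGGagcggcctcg
A match describes these letters and is not shown to be a bound site.

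The members have close relatives in skeletal fibres and in non-muscle cells. Of 22 such genes, 2 rose, 10 fell and 10 missed the threshold, with a median of -0.19, beside 16.5% higher and 18.1% lower over all genes. Scaled to library totals only, 11 passed as higher and 6 as lower, beside 64.9% and 4.19%. The pair that rose were Cnn2, a calponin of many cell types, which rose 2.19 times (edgeR adjusted p = 0.000537), and Actb, the non-muscle beta-actin, which rose 1.25 times (edgeR adjusted p = 0.0174). Acta1, the skeletal alpha-actin, fell from 35747 ± 5702 to 8154 ± 1997 CPM (edgeR adjusted p = 0.000209). Per length, its 113Q mean of 5639 RPKM remained far above the 304 RPKM of Acta2. Mylk4, a striated muscle member of the kinase family, fell by 2.56 on the log2 scale (edgeR adjusted p = 3.95e-05). Mylk2, the skeletal light chain kinase, fell from 430.0 ± 111 to 187 ± 23.8 CPM (edgeR adjusted p = 0.00358), and with library totals alone it did not pass (edgeR adjusted p = 0.0585). Tmod4, which caps thin filaments in fast fibres, fell 4.95 times (edgeR adjusted p = 1.17e-05), and Smtnl2, a relative of smoothelin, 3.56 times (edgeR adjusted p = 4.59e-05). Synpo, the relative of Synpo2 known from kidney podocytes and neurons, fell 2.28 times (edgeR adjusted p = 0.000123).

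Markers of smooth muscle, pericytes and other cell types were set beside the members, and their part in the result was not tested. Of 7 further smooth muscle and pericyte markers (the list without the members and Des), 1 rose, Abcc9, and 6 did not pass. Their sum was 424 to 545 CPM in the WT mice and 553 to 625 CPM in 113Q. Des, left out of this sum, was the 1 gene of the full list of 15 that was called lower. Its log2 fold change with library totals alone was 0.28 (edgeR adjusted p = 0.021). With library totals alone all 7 passed as higher, beside 64.9% of all genes. Pdgfrb, the growth factor receptor of pericytes and mural cells, named after its values were seen, was at 46.4 ± 12.4 CPM in the WT mice and 40.5 ± 1.55 CPM in 113Q (edgeR adjusted p = 0.459). Its call depended on the setting: it passed as lower without WT mouse 1 (log2 fold change -0.40, edgeR adjusted p = 0.0124) and as higher with library totals (0.52, edgeR adjusted p = 0.0425), and it was at -0.49 in the libraries with Epcam and 0.01 in those without. All 12 endothelial markers fell, beside 18.1% of all genes, with a median of -0.62. Their sum was 596 to 754 CPM in the WT mice and 422 to 436 CPM in 113Q. With library totals alone 2 of the 12 passed as higher, beside 64.9% of all genes. Their median was then 0.10, where the median over all genes was 0.73. Pecam1, an adhesion molecule of vessel lining, fell from 107 ± 10.2 to 61.6 ± 1.01 CPM (edgeR adjusted p = 0.00033), and with library totals alone its log2 fold change was -0.07 (edgeR adjusted p = 0.452). Relative to the other genes, vessel lining transcripts were thus lower in the group in which Acta2 was higher. On the scale of library totals 0 of the 12 passed as lower, while their median lay below that of all genes.

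Myofibroblasts, which make Acta2 and Tagln in fibrotic tissue, were represented by 9 other markers. Their sum was 87.0 to 183 CPM in the WT mice and 174 to 308 CPM in 113Q, with a median of 0.79; 0 of the 9 passed in edgeR, DESeq2 or limma voom. At an unadjusted p below 0.05 edgeR counted 0 of them and DESeq2 2. With library totals alone 7 of the 9 passed as higher, beside 64.9% of all genes. Postn, periostin, was at 13.7, 18.4 and 38.4 CPM in the WT mice and 75.7, 40.0 and 34.9 CPM in 113Q, in the order of Acta2 but with overlapping groups. Only 2 of the 9 markers, Postn and Cdh11, had WT mouse 1 lowest and 113Q falling from mouse 1 to mouse 3, beside 8.64% of all genes tested. Fibroblast markers summed to 2138 to 3620 CPM in the WT mice and 3194 to 3915 CPM in 113Q. Of these 12 markers, 0 passed in edgeR or limma voom, 3 in DESeq2 and 3 at an unadjusted p below 0.05 in edgeR. With library totals 11 passed as higher, beside 64.9% of all genes. Epithelial markers summed to 28.7 to 99.0 and 24.1 to 136 CPM. Satellite cells, the stem cells of the fibre, had 6 of 8 markers higher, beside 16.5% of all genes, with sums of 155 to 191 and 238 to 254 CPM. With library totals all 8 were higher, beside 64.9%. The macrophage sums overlapped, at 111 to 146 and 126 to 142 CPM, as did those of Schwann cells at 160 to 211 and 166 to 241 CPM and of adipocytes at 237 to 747 and 244 to 472 CPM. No marker was at 0 in every library, and Epcam was at 0 in WT mouse 1 and 113Q mouse 1.

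**Figure D4:**
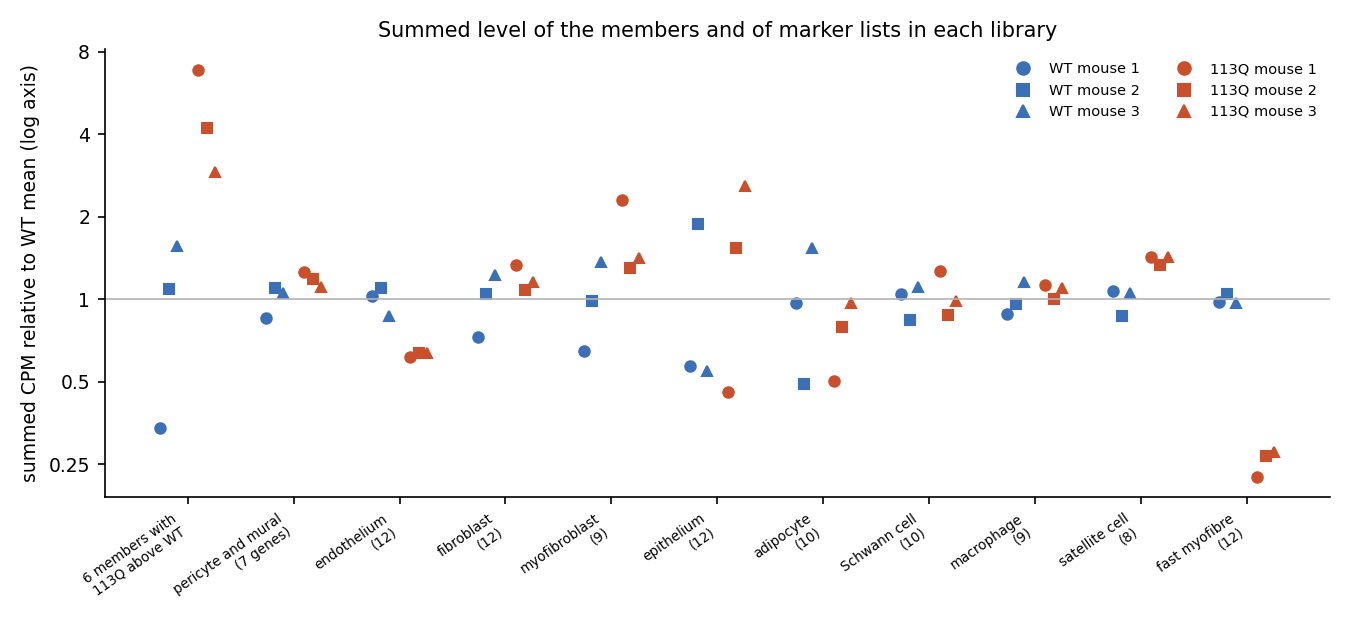
Summed CPM of 6 members and of the marker genes of each cell type, divided by the WT mean of that sum, on a log axis, with 1 point per mouse (colour for genotype, shape for mouse number). On the TMM scale, endothelial and fast fibre sums are lower in 113Q and satellite cell sums are higher. The sum of the 6 members that lay above WT runs from 138 to 636 CPM in the WT mice and from 1178 to 2791 CPM in 113Q. These 6 were picked for lying above WT, so the gap in their sum is given by that choice. The sum of all 10 members was 720 to 1254 CPM in the WT mice and 1564 to 3222 CPM in 113Q.

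A shared pattern was taken as the mean of the 10 members after each was scaled to the same mean and SD, so every member weighed alike. Among 10561 genes with a mean of at least 5 CPM, those most like it over the 6 libraries included Il17rd (Pearson r = 0.993), Ntrk3 (0.988), Pcp4 (0.987), Kdm4c (0.986) and Gm12898 (0.985). Their log2 fold changes were 0.24, 1.88, 2.14, 0.29 and 0.16, in that order, and did not pass. Il17rd, Pcp4 and Gm12898 overlapped between the groups. In all, 257 genes had an r of at least 0.9. Ntrk3, a neurotrophin receptor, was at 0.799, 3.64 and 5.0 CPM in the WT mice and 18.8, 10.5 and 5.86 CPM in 113Q. It had the mouse order of Acta2, with groups that just failed to overlap. After the mean of each group was subtracted, the most alike included Phc3 (r = 1.00), Flna (0.994), Setd2 (0.993), Zfp827 (0.992) and 4933439C10Rik (0.992). Flna, filamin A, which crosslinks actin and is a member of the contractile list, was at 92.1, 203 and 264 CPM in the WT mice and 838, 542 and 375 CPM in 113Q. Its log2 fold change of 1.65 did not pass (edgeR adjusted p = 0.0585). These correlations are across 6 libraries, depend on a few mice and are given without a test.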

How the data were processed

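The deposited table held 27131 genes in 6 libraries, 1 per mouse, as estimated counts not scaled to depth. The authors used Cuffdiff 2.1.1 for them, and FastQC 0.10.0, TopHat2 2.0.9, Bowtie2 2.1.0, cutadapt, Cufflinks and mm10 are also named, per the submitters' processing notes. No source used here gives the annotation, strand setting or read filters. The kit was TruSeq mRNA, per the labels' protocols. Values were rounded (5.38% to 5.96% were fractional). Estimated counts can shift between overlapping genes or near-identical copies.

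Groups came from the genotype label. The labels name separate mice. Counts were filtered with filterByExpr (minimum count 10), scaled with TMM factors (0.768 to 0.794 in WT, 1.26 to 1.32 in 113Q, so scaling and genotype move together) and compared with the robust quasi-likelihood F test of edgeR 4.0.16 in R 4.3.3, two-sided, adjusted by Benjamini-Hochberg over 16960 genes. Each standard error is the log2 fold change over the square root of its F. Log2 CPM for the likeness between genes had a prior count of 2. Same-numbered mice are not stated to be paired. The members, lists and tests were chosen with earlier results of these data known. Named genes were all 10 members, up to 4 genes of each other list with the smallest p, the relatives, the first markers of each cell type and the 6 genes most alike by each measure; others are said to have been named after their values were seen. Alternatives were DESeq2 1.42.0, limma voom (limma 3.58.1), RLE and upper-quartile factors, library totals, other filters, unrounded values, no robust estimation, a replicate block, leaving out each mouse, and splits or a term by epithelial transcripts (Epcam of at least 1 CPM). Scripts were tested on simulated data with 200 changed genes, far fewer than were called in the real data. In that simulation 8.74% of the edgeR calls, 29.7% of the DESeq2 calls and 9.90% of the limma voom calls were false. Coordinates come from GENCODE M21 (GRCm38), promoter sequences from RefSeq (GRCm38.p6). A pair of the genes most alike is not reported here. Reads were not analysed here.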

Additional observations from a re-analysis of the deposited data

How the results depend on the processing

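Of the 10 members, 2 were called (1 higher, 1 lower) by edgeR. With DESeq2 6 were called (5 higher), with library totals alone 8 (7 higher), without robust estimation 6 (5 higher), without a filter on low counts 1 (0 higher, 4 at an unadjusted p below 0.05), in the libraries without epithelial transcripts 1 (0 higher, also 0 unadjusted; 113Q is 1 mouse) and in those with them 5 (3 higher, 2 lower; WT is 1 mouse). Leaving out each mouse gave 1 to 3 called, 0 to 2 higher and 1 lower; without WT mouse 2, 113Q mouse 1, 113Q mouse 2 or 113Q mouse 3, 0 were higher, with 1, 1, 1 and 4 at an unadjusted p below 0.05. A lone mouse is assumed to vary like the others. limma voom, other factors, a stricter filter, unrounded values and an epithelial term gave 2. Over these settings 18% to 69.1% of all genes were called. The other 4 lists, counting Csrp2, a gene of 2 lists, once, held 65 calls, 102 with library totals and 50 to 60 without 1 mouse.

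Deviations of same-numbered mice from their group means correlated at 0.198, 0.236 and -0.274 for mice 1, 2 and 3. With 3 mice per group these values cannot decide whether the numbers pair the mice, and the labels state no pairing. The replicate block called 1 member (0 higher, 1 at an unadjusted p below 0.05) and 4737 genes in all, against 5869.

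Log2 fold changes that changed sign were Smtn at -0.014 and Myocd at 0.23 in the libraries without epithelial transcripts, Pdgfrb at 0.011 there and 0.52 with library totals, and with library totals Calm2 at 0.0054, Mkl1 at 0.058 and Srf at 0.54; Smtn ran from -0.035 to 0.065 without 1 mouse. The cause was not tested. Among the members the lowest depth was 17 counts, for Actg2 in WT mouse 1.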
